A study of Peromyscus polionotus with 11 samples.

Results

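Tcf7l2, Ntng1, Lef1, Adarb1, Calb2 and Foxp2 are genes that neurons of the thalamus are known to express, and they were followed here across 2 forebrain nuclei of the oldfield mouse (Peromyscus polionotus). All probe sets of the array whose annotation gives only 1 of these symbols were taken, which were 11 of the 22626 tested: 4 for Tcf7l2, 2 each for Ntng1 and Adarb1, and 1 each for Lef1, Calb2 and Foxp2. Total RNA from micropunches was hybridised to arrays made for the house mouse. The medial preoptic area (MPOA) gave 3 samples from long days and 3 from short days, and the bed nucleus of the stria terminalis (BNST) gave 3 from long days and 2 from short days. The labels give no age, sex or genotype of the mice and no number of hours for a day length. They number the samples 1 to 6 in the MPOA and 1 to 5 in the BNST, without tying a sample to an animal, so that the p-values measure only the spread between these samples. The members were chosen by symbol, as thalamus genes, with the intensities of these arrays over the 4 groups already seen, and which comparison was looked at is not recorded. The differences between groups are therefore given as descriptions, and the number of probe sets that passed is set beside the share of all probe sets that did.

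The thalamus lies close behind and above both nuclei and relays sensory and motor signals to the cortex. Its projection neurons are mostly glutamatergic, whereas those of the MPOA and the BNST are mostly GABAergic. Tcf7l2 encodes a transcription factor that binds beta-catenin in the Wnt pathway and stays on in adult thalamic neurons, where it maintains their identity. Lef1 is a related factor of the same family. Ntng1 encodes netrin-G1, a membrane-anchored protein on the axons of thalamic neurons. Adarb1 encodes ADAR2, which edits adenosine to inosine in RNA, including the transcript of the glutamate receptor subunit Gria2. Calb2 encodes calretinin, a calcium-binding protein of midline thalamus and of many interneurons, and Foxp2 a forkhead transcription factor shared by thalamus, striatum and other regions. In the mouse none of these genes is confined to the thalamus.

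The median over all probe sets, called the array median here, was 19 on each array. The short-day MPOA array 6 stood apart from the others on the first principal component (-31.2 against -6.63 to 25.4), which held 23.2% of the variance. Leaving it out called none of the 11 probe sets in any of the 6 comparisons. The mean log2 intensity of 11 striatal genes was 6.11 to 6.70 on BNST arrays and 5.52 to 6.12 on MPOA arrays, and that of 21 hypothalamic and preoptic genes was 5.11 to 5.15 on BNST arrays and 5.19 to 5.38 on MPOA arrays. The nuclei overlapped at the edge for the striatal genes and did not overlap for the hypothalamic and preoptic genes.

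Tcf7l2, through its brightest probe set (1426639_a_at), read 48, 141 and 91 on the long-day BNST arrays 1, 2 and 3 and 42 and 36 on the short-day BNST arrays. On the MPOA arrays it read 29, 54 and 44 in long days and 49, 42 and 29 in short days. Arrays 2 and 3 of the long-day BNST were thus above all other arrays, while array 1 of that group lay inside the range of the MPOA. The group means were 93.3 ± 46.5 (SD, n = 3) in the long-day BNST, 39.0 ± 4.24 (n = 2) in the short-day BNST, 42.3 ± 12.6 (n = 3) in the long-day MPOA and 40 ± 10.1 (n = 3) in the short-day MPOA. The last 3 of these means did not differ beyond their spread. Within the long-day BNST the highest array was 2.94 times the lowest.

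The other Tcf7l2 probe sets did not share this pattern. They all read below or close to the array median, with 13 to 23 for 1425229_a_at, 12 to 21 for 1429428_at and 9 to 16 for 1429427_s_at. At such levels a rounding step of 1 unit is a large part of the range. On the long-day BNST arrays 1, 2 and 3 they read 13, 18 and 23, then 12, 16 and 14, then 9, 11 and 12. Array 1 was the lowest of the 3 arrays for each of them. The name ending of 1429427_s_at marks a possible match to transcripts of more than 1 gene.

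**Figure D1:**
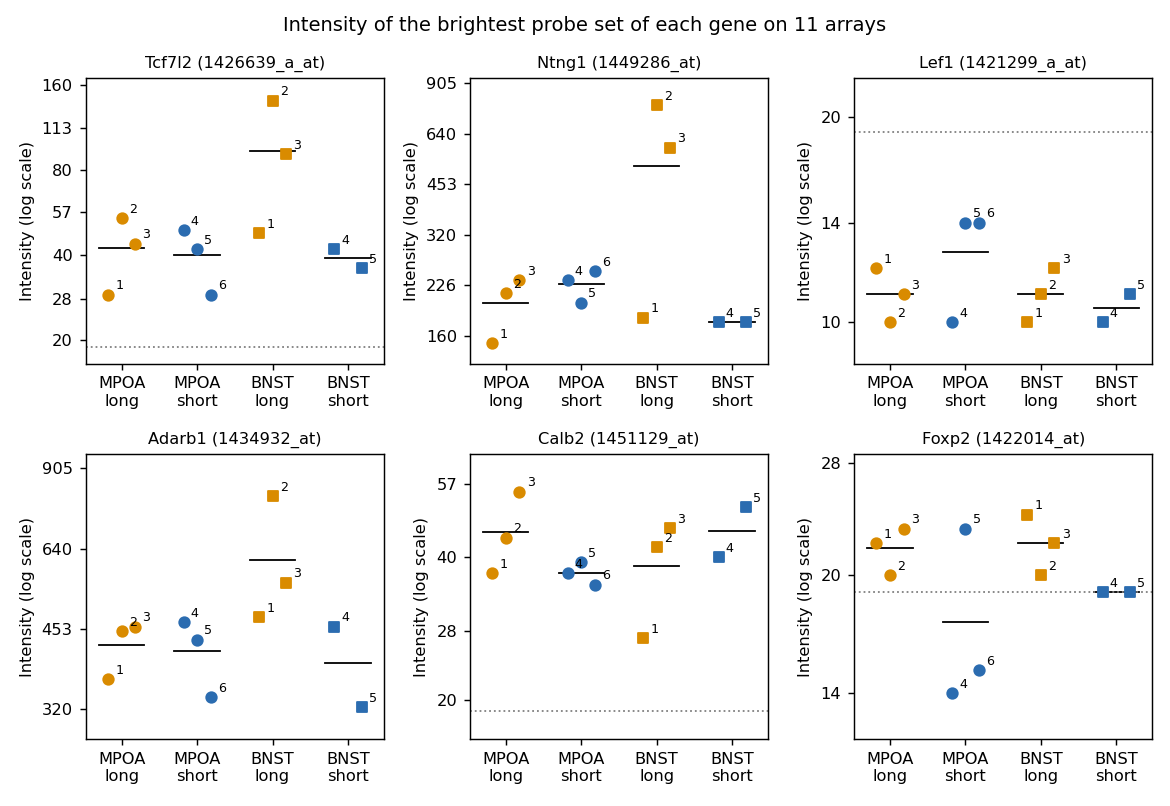
Intensity (log scale) of the brightest probe set of each gene on the 11 arrays, by nucleus (circles MPOA, squares BNST) and day length (orange long, blue short). Numbers are the sample numbers, black bars the group means, and the dotted line the array median of 19, drawn where the gene comes near it. Arrays 2 and 3 of the long-day BNST are the 2 highest for Tcf7l2, Ntng1 and Adarb1, and not for Lef1, Calb2 or Foxp2.

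The related factor Lef1 was dim throughout. Its 1 probe set read 10, 11 and 12 in the long-day BNST, 10 and 11 in the short-day BNST, 12, 10 and 11 in the long-day MPOA and 10, 14 and 14 in the short-day MPOA. All 11 values lie below the array median, and the groups overlap. Lef1 thus gave no signal above the array median in any of these punches.

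Foxp2 read 22, 20 and 23 in the long-day MPOA, 14, 23 and 15 in the short-day MPOA, 24, 20 and 22 in the long-day BNST and 19 and 19 in the short-day BNST. It stayed within 5 units of the array median on every array, and the groups of the MPOA overlap. In the BNST the short-day arrays lay below the long-day arrays by a single unit.

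Ntng1 had the widest range of the 6 genes, and its probe set 1449286_at read 181, 778 and 580 on the long-day BNST arrays 1, 2 and 3. The short-day BNST arrays both read 176, the long-day MPOA arrays 152, 214 and 234, and the short-day MPOA arrays 234, 201 and 249. The long-day BNST mean was 513 ± 304 (SD, n = 3), against 228 ± 24.6 (n = 3) in the short-day MPOA, the next highest group. Again the first array of the long-day BNST read like the other groups, and the highest array of the group was 4.30 times the lowest. The dimmer probe set 1426338_a_at read 33, 49 and 44 on the same arrays, 34 and 27 in short days, and 26 to 41 in the MPOA. Arrays 2 and 3 were the 2 highest of all 11 for it too.

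The Adarb1 probe set 1434932_at read 476, 802 and 552 on the long-day BNST arrays, 457 and 323 on the short-day BNST arrays, 364, 448 and 457 on the long-day MPOA arrays and 466, 432 and 337 on the short-day MPOA arrays. Here all 3 long-day BNST arrays lay above all others, with array 2 furthest out. The second probe set, 1421480_a_at, behaved differently: it read 49, 66 and 48 in the long-day BNST and 54 and 58 in the short-day BNST, against 43, 49 and 39 in the long-day MPOA and 44, 45 and 34 in the short-day MPOA. It was thus higher in the BNST in both day lengths, except that the lowest BNST array read 48 and the highest MPOA array 49.

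Calb2 read 27, 42 and 46 in the long-day BNST, 40 and 51 in the short-day BNST, 37, 44 and 55 in the long-day MPOA and 37, 39 and 35 in the short-day MPOA. It was highest on a long-day MPOA array and lowest on array 1 of the long-day BNST. The short-day groups of the nuclei did not overlap, by 1 unit, and the long-day groups did.

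Over all 11 arrays, the standard deviation of log2 intensity exceeded that of 99.9% of all probe sets for the brightest Tcf7l2 and Ntng1 probe sets and that of 98.2% for the brighter Adarb1 probe set. For Lef1 the figure was 49.7%, for Foxp2 85.6% and for Calb2 91.9%. As a description over the 11 arrays, Pearson's r of log2 intensity was 0.89 between Tcf7l2 and the brighter Ntng1 probe set, 0.94 between Tcf7l2 and the brighter Adarb1 probe set, and 0.80 between the latter and Ntng1. With the group means subtracted they were 0.82, 0.88 and 0.62. Without the long-day BNST arrays 2 and 3, which lie furthest from the median of Tcf7l2, they were 0.25, 0.83 and 0.18 over 9 arrays. Those with the brighter Ntng1 probe set thus rest on these 2 arrays. For the dimmer Ntng1 probe set, r over the 11 arrays was 0.89 with Tcf7l2 and 0.93 with the brighter Adarb1 probe set. Over the 9 arrays it was 0.71 and 0.86. Between Tcf7l2 and Lef1, Calb2 and Foxp2 the values over the 11 arrays were -0.25, 0.18 and 0.17. They were -0.24, 0.66 and -0.26 with the group means subtracted, and -0.67, 0.04 and 0.14 over the 9 arrays.

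The comparison of short with long days asks whether day length changes expression in a nucleus. In the BNST the brightest probe sets of Ntng1 and Tcf7l2 were lower in short days by -1.30 ± 0.36 and -1.13 ± 0.31 on the log2 scale (SE), and the brighter probe set of Adarb1 was at -0.63 ± 0.20. The dimmer Ntng1 probe set was at -0.45 ± 0.19 and the dimmer Adarb1 probe set at 0.06 ± 0.17. Calb2 was at 0.27 ± 0.20, Foxp2 at -0.21 ± 0.18 and Lef1 at -0.06 ± 0.16, and the other Tcf7l2 probe sets lay between -0.32 and 0.39. Of the 11 probe sets 8 had a negative difference and 3 a positive one, with a median of -0.21 against -0.01 over all probe sets. The limma fit over all 22626 probe sets called 0 of the 11, where it called 0.0442% of all probe sets, and the smallest adjusted p of the 11 was 0.144. Unadjusted p-values under 0.05 were found for 4 of the 11 and for 12.7% of all probe sets. The groups did not overlap, with short days lower, for 4 of the 11 and for 13.5% of all probe sets.

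These BNST values depended on single arrays. Without array 1 of the long-day BNST, the differences were -1.54 for Tcf7l2 and -1.93 for Ntng1, and both were then called, among 16 probe sets in all (limma). Without array 2 they were -0.77 and -0.88, and without array 3 they were -1.08 and -1.09, with no member called. The Adarb1 value was -0.38 without the short-day array 5 and -0.88 without the short-day array 4. The spread of Tcf7l2 and Ntng1 within the 3 long-day arrays (2.94-fold and 4.30-fold) exceeded the fold that corresponds to these group differences (2.19 and 2.47).

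In the MPOA none of the 6 genes was called between short and long days (limma, adjusted p of 1 for each), as was none of all probe sets (0%). Tcf7l2 was at -0.07 ± 0.28, Ntng1 at 0.21 ± 0.32, Lef1 at 0.19 ± 0.14, Adarb1 at -0.05 ± 0.18, Calb2 at -0.28 ± 0.18 and Foxp2 at -0.36 ± 0.16 on the log2 scale, each by its brightest probe set. Foxp2 was the 1 member with an unadjusted p under 0.05, which 3.5% of all probe sets had. Its lowest values were on the short-day arrays 4 and 6, while array 5 read like the long-day arrays. No member's groups lay apart from each other, against 2.64% of all probe sets with short days higher and 2.55% with short days lower.

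Whether the difference between day lengths itself differed between the nuclei was tested in the same fit. The BNST difference minus the MPOA difference was -1.51 ± 0.49 for Ntng1, -1.06 ± 0.42 for Tcf7l2, -0.59 ± 0.27 for Adarb1 and 0.55 ± 0.27 for Calb2 by their brightest probe sets. Of the 11 probe sets 0 were called, as were 0% of all probe sets, and the smallest adjusted p of the 11 was 0.47 (limma). At an unadjusted p under 0.05 there were 3 of 11, against 8.34% of all probe sets. Without array 1 of the long-day BNST the value for Ntng1 was -2.14, and it was then called. Without array 2 it was -1.09 and without array 3 it was -1.30, and it was not called.

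**Figure D2:**
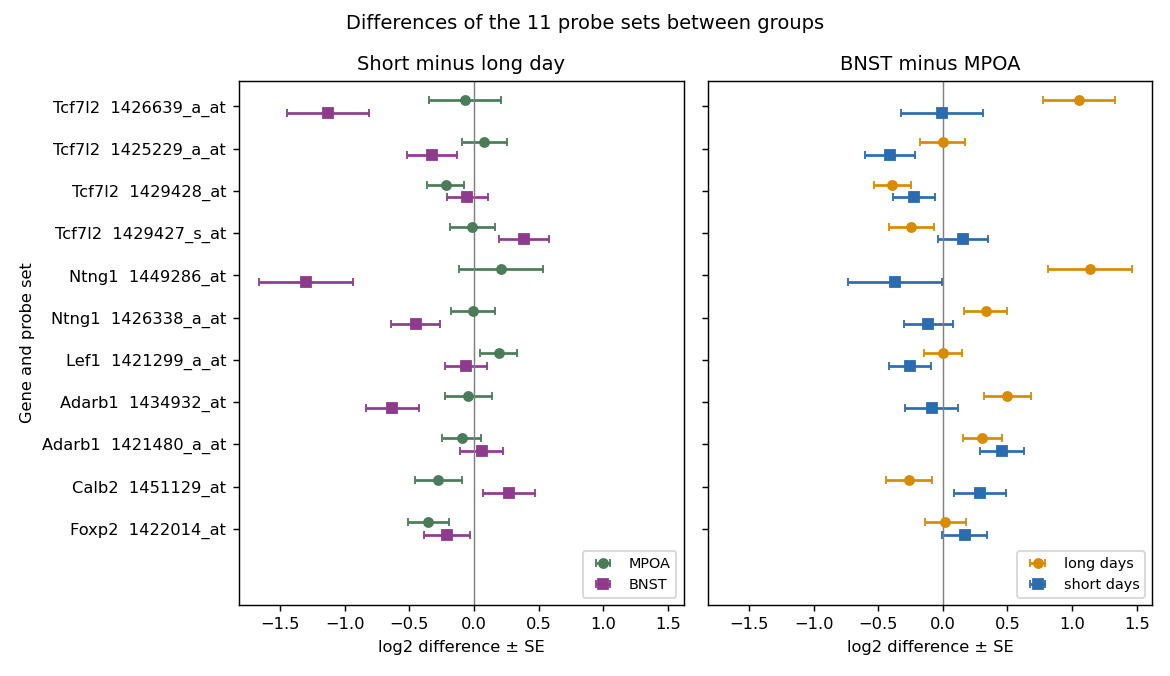
Log2 differences with standard errors for the 11 probe sets. The left panel shows short minus long days in each nucleus, and the right panel BNST minus MPOA in each day length. The Tcf7l2 probe set 1426639_a_at, the Ntng1 probe set 1449286_at and the Adarb1 probe set 1434932_at lie to the left for the BNST (-1.13, -1.30 and -0.63) and to the right for long days (1.05, 1.14 and 0.50). None of the 11 was called.

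Between the nuclei, the same probe sets were again furthest from 0 in long days. There the BNST minus MPOA difference was 1.14 ± 0.32 for Ntng1, 1.05 ± 0.28 for Tcf7l2 and 0.50 ± 0.18 for Adarb1 by their brighter probe sets, and it was 0.00 ± 0.14 for Lef1, -0.26 ± 0.18 for Calb2 and 0.02 ± 0.16 for Foxp2. In short days it was -0.37 ± 0.36 for Ntng1, -0.01 ± 0.31 for Tcf7l2, -0.09 ± 0.20 for Adarb1, -0.25 ± 0.16 for Lef1, 0.29 ± 0.20 for Calb2 and 0.17 ± 0.18 for Foxp2. Both comparisons share their arrays with those between day lengths, so these values are not separate evidence. In long days 0 of the 11 were called, against 0.128% of all probe sets (4 of 11 with an unadjusted p under 0.05, against 10.5%, smallest adjusted p = 0.17, limma). Those 4 were the brighter probe sets of Ntng1, Tcf7l2 and Adarb1, and the dim Tcf7l2 probe set 1429428_at. The latter was lower in the BNST (-0.39 ± 0.14). In short days 0 of the 11 were called, against 0.354% (2 of 11 with an unadjusted p under 0.05, against 10.3%, smallest adjusted p = 0.31, limma). Those 2 pointed in opposite directions: Tcf7l2 1425229_a_at at -0.41 ± 0.19 and Adarb1 1421480_a_at at 0.46 ± 0.17. The nuclei did not overlap in long days for 1 probe set, that of Adarb1, higher in the BNST (6.69% of all probe sets). In short days they did not overlap for 2 with the BNST higher (8.86%) and 2 with the BNST lower (10.6%).

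Over both day lengths, the dimmer Adarb1 probe set 1421480_a_at had the smallest adjusted p of the 11, at 0.38 ± 0.11 (adjusted p = 0.13, limma). Its difference was above 0 in long days (0.31 ± 0.15) and in short days (0.46 ± 0.17). The brightest Tcf7l2 probe set was at 0.52 ± 0.21, and the dim Tcf7l2 probe set 1429428_at at -0.31 ± 0.11, so that probe sets of 1 gene pointed in opposite directions. Of the 11, 0 were called, against 1.03% of all probe sets, and 3 had an unadjusted p under 0.05, against 11.9%. Without array 1 of the long-day BNST, Ntng1 was at 0.70 and called, in place of 0.39 ± 0.24. Without the long-day BNST array 1, Ntng1 at 1.77 and Tcf7l2 at 1.47 were called in long days as well.

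Other genes known from the thalamus were read on the same arrays, from a list of 20 genes of which 18 were measured. None of the 18 was called between day lengths in either nucleus, against 0% of all probe sets in the MPOA and 0.0442% in the BNST. In the BNST 15 of the 18 were lower in short days and 3 higher, with a median of -0.22 against -0.03 over all genes, and in the MPOA 6 were lower and 12 higher (median 0.06 against 0.00). The 3 higher in the BNST were Calb1 (0.29 ± 0.18), Synpo2 (0.25 ± 0.16) and Prox1 (0.20 ± 0.15). Rgs16 (-0.04 ± 0.17), Ramp3 (-0.07 ± 0.17) and Zic4 (-0.08 ± 0.18) lay near 0. Prkcd, protein kinase C delta, read 38, 74 and 64 in the long-day BNST, 37 and 25 in the short-day BNST, and 16 to 24 in the MPOA. It was called in long days (1.36 ± 0.20, adjusted p = 0.00693, limma) and over both day lengths (1.02 ± 0.15, adjusted p = 0.00137, limma), and it is known from the BNST and the central amygdala too. Cbln1, a synapse-organising protein, read 70, 855 and 825 in the long-day BNST, 110 and 51 in the short-day BNST and 183 to 467 in the MPOA. Zic1, a zinc finger factor also known from septum and preoptic area, read 278, 975 and 669, then 168 and 343, and 364 to 579 in the MPOA. The glutamate transporter Slc17a6 read 11, 136 and 63, then 29 and 18, and 48 to 88 in the MPOA, and the nuclear receptor Rora 69, 202 and 104, then 83 and 66, and 82 to 112.

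The long-day BNST arrays 2 and 3 were the 2 highest of 11 for Prkcd, Cbln1, Zic1 and Shox2, which are 4 of the 18, and for 1.91% of all genes. Shox2, near the array median, read 15, 36 and 24 in the long-day BNST and 18 and 23 in the short-day BNST. In the MPOA it read 16 to 22. The pair of long-day BNST arrays 2 and 3 was singled out from the values of Tcf7l2, Ntng1 and Adarb1, which are 3 of the 6 members with that order. The list also held genes without it. Gbx2, a defining thalamic transcription factor, read 9 to 14 on all arrays and Prox1 9 to 12, both under the array median. Pvalb, the marker of the reticular thalamic nucleus and of many interneurons, read 47, 327 and 211 in the long-day BNST, 289 and 55 in the short-day BNST and 48 to 135 in the MPOA.

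**Figure D3:**
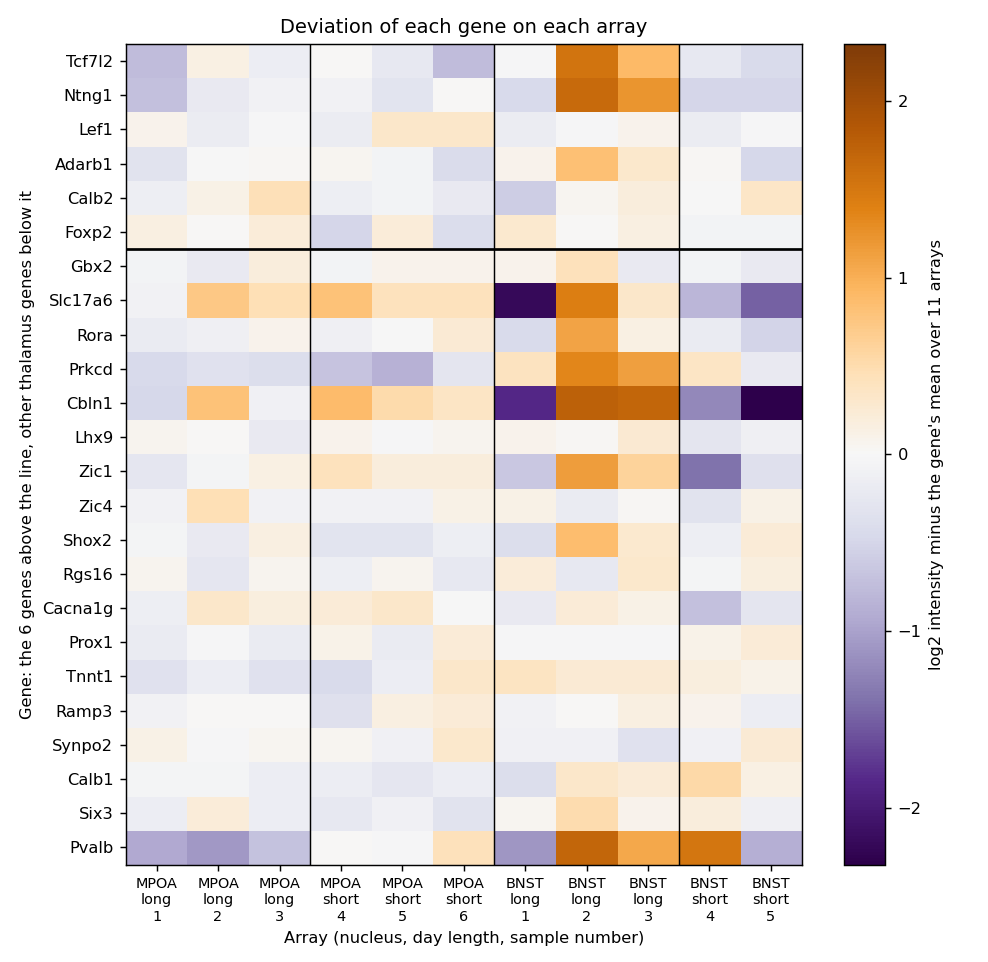
Log2 intensity minus the gene's own mean over the 11 arrays (colour) for the 6 genes above the line and 18 other thalamus genes below it, on each array. On the long-day BNST arrays 2 and 3, 14 and 15 of the 18 other genes were above their own mean. On array 1 of that group 7 were, and on the short-day MPOA array 6, 12 were. Of all genes, 52.4%, 49.7% and 54.1% were above their own mean on the long-day BNST arrays 2, 3 and 1.

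On the long-day BNST arrays 1, 2 and 3 the summed intensity of the 18 genes was 815, 2916 and 2265. In the other groups it ran from 857 to 1008 (short-day BNST), from 1038 to 1419 (long-day MPOA) and from 1432 to 1619 (short-day MPOA). Cbln1 (855 and 825), Zic1 (975 and 669) and Pvalb (327 and 211) gave most of the sum on long-day BNST arrays 2 and 3. The sum therefore does not show a rise shared by all 18 genes. Array 1 of the long-day BNST had the lowest mean log2 intensity of the 11 arrays for these genes (4.84) and the highest for 11 striatal genes (6.70). On arrays 2 and 3 the striatal mean was 6.22 and 6.11, the lowest of the BNST arrays. The part that neighbouring tissue in a punch has in these values was not tested. In whole punches, fewer cells of a type and less RNA per cell cannot be told apart.

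**Figure D4:**
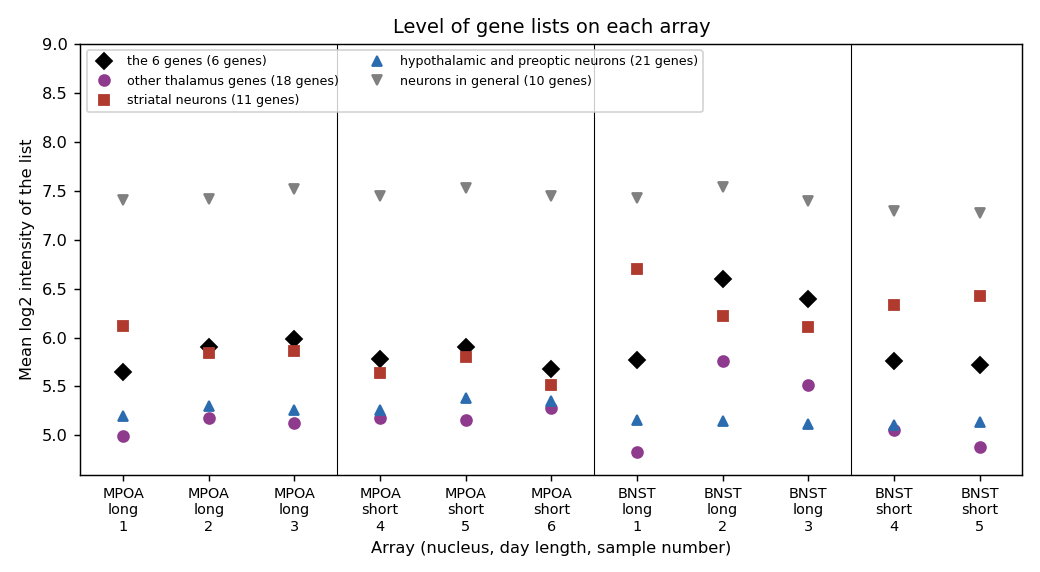
Mean log2 intensity of 5 gene lists on each of the 11 arrays. The 18 other thalamus genes were at 5.76 and 5.52 on the long-day BNST arrays 2 and 3 and between 4.84 and 5.28 on the other 9 arrays. The 6 genes were at 6.59 and 6.39 on those arrays and between 5.64 and 5.99 on the others. Those arrays were singled out from Tcf7l2, Ntng1 and Adarb1, which lay 1.53, 1.65 and 0.83 above their own means on array 2. Lef1, Calb2 and Foxp2 lay at -0.04, 0.05 and 0.01 there, and at 0.09, 0.18 and 0.15 on array 3.

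No gene of the lists of partners, relatives and targets of the 6 members was called between day lengths. Of all probe sets, 0% were called in the MPOA and 0.0442% in the BNST. For Wnt and beta-catenin genes, the partners of Tcf7l2 and Lef1, 0 of 32 measured genes were called in any of the 6 comparisons, and in the BNST 15 were higher and 17 lower in short days. Of 4 genes listed around netrin-G, 2 were measured, and neither was called. They were Ntng2, a relative of Ntng1, and Lrrc4, known as a partner of netrin-G2. The list thus gave no value for a partner of netrin-G1 itself. Of 15 editing enzymes and edited transcripts, 0 were called between day lengths. Over both day lengths 1 was higher and 2 were lower in the BNST: the glutamate receptor subunit Gria3 was at 0.78 ± 0.17, the kainate receptor subunit Grik1 at -0.84 ± 0.12 and the vesicle release factor Cadps at -0.58 ± 0.12. Gria2, whose transcript ADAR2 edits, read 3979 to 5173 on the 11 arrays. An array of this kind measures the amount of a transcript and not its editing. Of 10 calcium-binding proteins 1 was called, Hpca (hippocalcin), at 0.51 ± 0.12. Of 6 forkhead partners and targets 3 were called, all higher in the BNST: the striatal factor Foxp1 (0.80 ± 0.12), the transcription factor Mef2c (1.02 ± 0.14) and the lipoprotein receptor Vldlr (0.64 ± 0.12). These calls are over both day lengths, where 1.03% of all probe sets were called (limma). Foxp1, Mef2c, Vldlr and Grik1 were called in short days also.

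Of the marker lists, none had a gene called between day lengths in either nucleus (limma). Of all probe sets, 0% were called in the MPOA and 0.0442% in the BNST. In the BNST the medians of the short minus long day difference were 0.01 for 3 habenula genes, -0.01 for 11 striatal, -0.08 for 21 hypothalamic and preoptic and -0.04 for 5 cortical and hippocampal genes. They were -0.18 for 10 genes of neurons in general, 0.06 for 8 of oligodendrocytes, -0.11 for 8 of astrocytes and -0.33 for 6 of ependyma and choroid plexus. They were -0.02 for 9 genes of microglia, -0.13 for 9 of vessels and -0.08 for 2 of red cells. The habenula genes, of the region next to the thalamus, read 15 to 27 on all arrays. Over both day lengths 6 of the 11 striatal genes were called higher in the BNST, and of the 21 hypothalamic and preoptic genes 1 was called higher and 5 lower. In that comparison 1.03% of all probe sets were called in either direction.

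The genes whose log2 intensity over the 11 arrays was most like that of a member, by Pearson's r as a measure of likeness, were sought among 7463 genes. For Tcf7l2 they were Psma6 (0.94), Jun (0.93) and Cyct (0.90), for Ntng1 Inhbb (0.92), Ppm1g (0.91) and Nptx2 (0.91), and for Adarb1 Sema7a (0.96), Cckbr (0.93) and Rb1 (0.91). Jun, an immediate early transcription factor, read 70, 126 and 84 in the long-day BNST and 58 to 72 on all other arrays. Nptx2, a synaptic pentraxin, read 36, 63 and 58 in the long-day BNST and 22 to 33 on all other arrays. For Lef1 the closest were Rflnb (0.86), Esam (0.85) and Eif2ak3 (0.83), for Calb2 Alkbh5 (0.87), Nrap (0.84) and Trib1 (0.84), and for Foxp2 Rab7b (0.93), Nme5 (0.87) and Shc3 (0.85). With the group means subtracted, the closest genes were Edem3 to Tcf7l2 (0.97), Cntn1 to Ntng1 (0.98), Ccl4 to Lef1 (0.98), Art1 to Adarb1 (0.96), Eif2b5 to Calb2 (0.96) and Leng8 to Foxp2 (0.96). These values are the highest among all the genes searched, and they describe these 11 arrays only.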

How the data were processed

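The values deposited by the authors are intensities of probe sets, not logged, and RMA 3.4 made them per the submitters' processing notes. How the background was set and the arrays scaled is not given in the sources used here. They are whole numbers from 5 to 10542 once 64 control probe sets are set aside, and 51.1% of them are at or below the median of 19. The platform annotation names the genes: of 22626 probe sets, 20380 have 1 symbol (12393 genes), 691 several and 1555 none. Since the probes follow house mouse sequence, differences in the oldfield mouse can lower a signal by an unknown amount. Levels were therefore compared across probe sets only with the array median and to name the brighter probe set of a gene. Summed intensities and list means also put levels of different genes together, and they were compared between arrays. The share of a gene in such a sum carries the same limit. No detection call was used, and the number of arrays limits the precision.

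With limma 3.58.1 (R 4.3.3), log2 intensities without a pseudocount were modelled by 4 group means over the 11 arrays (lmFit, eBayes, 7 residual and 12.9 prior degrees of freedom). The 6 comparisons were two-sided, with p-values adjusted by Benjamini-Hochberg over all 22626 probe sets and called under 0.05. The procedure was tested on simulated arrays with independent noise and a fixed shift on all arrays of the shifted groups. A shift on only some arrays of a group was not simulated, so the test does not cover that case. The 6 genes, the 17 further lists and the tests were chosen with earlier results of these data known. The lists use the probe set with the highest mean for each gene and have no set test. Named were all probe sets of the 6 genes, a selection of the list genes that were called, defining markers of a region, and the 3 genes most like each member. Shox2, Cbln1, Zic1, Slc17a6, Rora, Pvalb, Calb1, Synpo2, Rgs16, Ramp3 and Zic4 were named after their values were seen. No 2 arrays were identical. Sample numbers were not taken as pairs, since no label ties a number to an animal. Same-numbered arrays of the nuclei had deviations from their group means that correlated by -0.03 to 0.07. With groups of 2 or 3 arrays and many dim probe sets, these values cannot settle whether same-numbered samples share animals. The alternatives changed the scaling (quantile, or the array median), left out dim probe sets, added a pseudocount of 16, used a prior with trend and robust settings or array weights, kept 1 probe set for a gene, set the threshold at 0.10, fitted only the nucleus or day length in question, used a replicate block, or left out each array.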

Additional observations from a re-analysis of the deposited data

How the results depend on the processing

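No member was called in the 6 comparisons in the fit as reported. This held in all 22 alternatives that could be run except 2. Without array 1 of the long-day BNST, 2 members were called between short and long days in the BNST, 1 in the difference between the nuclei of that effect, 2 between the nuclei in long days and 1 over both day lengths. Leaving out each array in turn thus gave 0 to 2, 0 to 1, 0 to 2 and 0 to 1 members called in these comparisons, and 0 in the others. With the sample number as a replicate block, 2 members (Tcf7l2 and Ntng1) were called between the nuclei in long days. The numbers do not pair the samples by any label, and the block called 0 in the other comparisons, whether fixed or random. Of 1310 member values under alternatives, 1255 kept their sign, and those that turned had a main value of at most 0.16 on the log2 scale in either direction. The 4 values that moved by more than the spread within groups were 3 of Ntng1 without array 1 of the long-day BNST and 1 of Tcf7l2 (1429428_at) with a pseudocount of 16. Of the 11 probe sets 4 had a mean below the median of all, where rounding to whole numbers limits what can be seen.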
